A study of Mus musculus with 6 samples.

Results

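Golgi enzymes and transporters that shape antibody glycans were examined in mouse splenic plasma cells that had switched to IgG1 or still made IgM. The genes were chosen by symbol and numbered 10 of the 24346 symbols in the deposited tables. They comprised the mannose-trimming enzymes Man1a and Man2a1, the branching enzymes Mgat1 and Mgat2, the core fucosyltransferase Fut8, the galactose genes B4galt1 and Slc35a2, and the sialic acid genes St6gal1, Slc35a1 and Cmas. The data were 6 RNA-seq libraries at day 7 after immunisation, 3 from IgG1 plasma cells and 3 from IgM plasma cells. Both groups descended from B1-8germ B cells, which carry the B1-8 heavy chain that, with a lambda light chain, binds the hapten NP. These cells had been transferred, with a congenic mark, into wild-type C57BL/6J hosts immunised with NP-CGG in alum, and donor plasma cells were sorted from spleen by isotype. All cells thus came from 1 engineered heavy-chain source and 1 immunisation protocol. The number and age of the animals are not stated in the labels. Nor is it stated that each library came from its own mouse, and the p-values therefore reflect library-to-library spread that could be technical.

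Antibodies carry N-linked glycans that arrive from the endoplasmic reticulum as mannose-rich chains and are remodelled in the Golgi. Mannosidases trim them, MGAT1 and MGAT2 each add an N-acetylglucosamine (GlcNAc) that starts a branch, FUT8 adds fucose to the core, B4GALT1 adds galactose, and ST6GAL1 caps the galactose with sialic acid. Donor sugars are made in the cytosol or, for CMP-sialic acid, in the nucleus by CMAS. They enter the Golgi through carriers such as SLC35A2 for UDP-galactose and SLC35A1 for CMP-sialic acid. On IgG the fucose, galactose and sialic acid of the Fc glycan are known to alter binding to Fc receptors and complement, and in B cells ST6GAL1 also builds the sialylated ligands of CD22.

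Expression was deposited as FPKM, fragment counts scaled to transcript length and to the fragments mapped in the library. The length scaling allows levels of different genes to be set side by side, and the summed FPKM differed between libraries, from 855123 to 914020 in IgG1 and from 730695 to 806599 in IgM. Depth was estimated from the value of a single fragment, read from the smallest steps among low values. It was roughly 15000000 to 15400000 fragments in IgG1 libraries and 15900000 to 17500000 in IgM libraries. The estimate takes FPKM as scaled to each library's own fragments, while the scaling used is not given in the sources consulted. Of 8 plasma cell markers 8 were above an FPKM of 1 in every library, among them Prdm1, which encodes Blimp-1. Summed FPKM of the 8 was 36772 to 39346 in IgG1 and 44301 to 50167 in IgM, and Jchain, at 14208 to 16962 in IgG1 and 24812 to 28583 in IgM, was the highest marker in IgM libraries. Without Jchain the sum was 22385 to 22564 in IgG1 and 18420 to 23057 in IgM, which overlap. Most of that sum was Mzb1 (mean 15063 in IgG1, 13319 in IgM) and Xbp1 (6636 and 5580). Prdm1 was at 18.5 to 25.9 in IgG1 and 35.8 to 52.0 in IgM, and Irf4 at 51.8 to 59.1 and 86.6 to 96.7. Slamf7 was at 90.7 to 128 in IgG1 and 159 to 176 in IgM. Prdm1, Irf4 and Slamf7 were thus lower in every IgG1 library. Xbp1 was higher in every IgG1 library, and Mzb1 and Sdc1 overlapped. Tnfrsf17, which encodes the survival receptor BCMA, was at 67.4 to 97.0 in IgG1 and at 568 to 713 in IgM. The B cell marker Pax5 was at 0 in all 6 libraries and the summed FPKM of the 9 B cell markers ranged from 97.5 to 124 in IgG1 and from 124 to 153 in IgM, and Ms4a1 among them lay between 45.9 and 70.5 over all libraries. Summed FPKM of the 7 myeloid markers was 34.5 to 45.7 in IgG1 and 64.2 to 69.2 in IgM, led by Cd68, with S100a8 and S100a9 at 0 in all libraries. T cell, erythroid and platelet markers, led by Lck, Hba-a1 and Itga2b, summed to at most 7.29, 2.80 and 1.11 in any library. The part of these markers in the results was not tested. In bulk RNA, fewer cells of a type and less RNA per cell cannot be told apart. Of the symbols analysed here 0 name an immunoglobulin heavy or light chain, so the sorted isotype rests on the labels.

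St6gal1 was the 1 gene of the 10 that passed the test. Its level was 2.04-fold lower in IgG1 cells, with IgM cells as the comparison, and it had the lowest p-value of the 10, the 10th lowest of all 9087 genes tested. The other genes of the set had adjusted p-values between 0.0693 and 0.817. The share of all tested genes called in either direction was 6.02% (1.76% lower and 4.26% higher in IgG1), and 1 of 10 is near that background. At an unadjusted limma p under 0.05, 6 of the 10 would pass, all of them lower in IgG1. Counted in either direction, 22.2% of all tested genes would pass. Calls used limma on log2(FPKM + 1) with Benjamini-Hochberg adjustment over all genes and a threshold of 0.05. All 10 genes were above an FPKM of 1 in every library and all were tested.

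**Figure D1:**
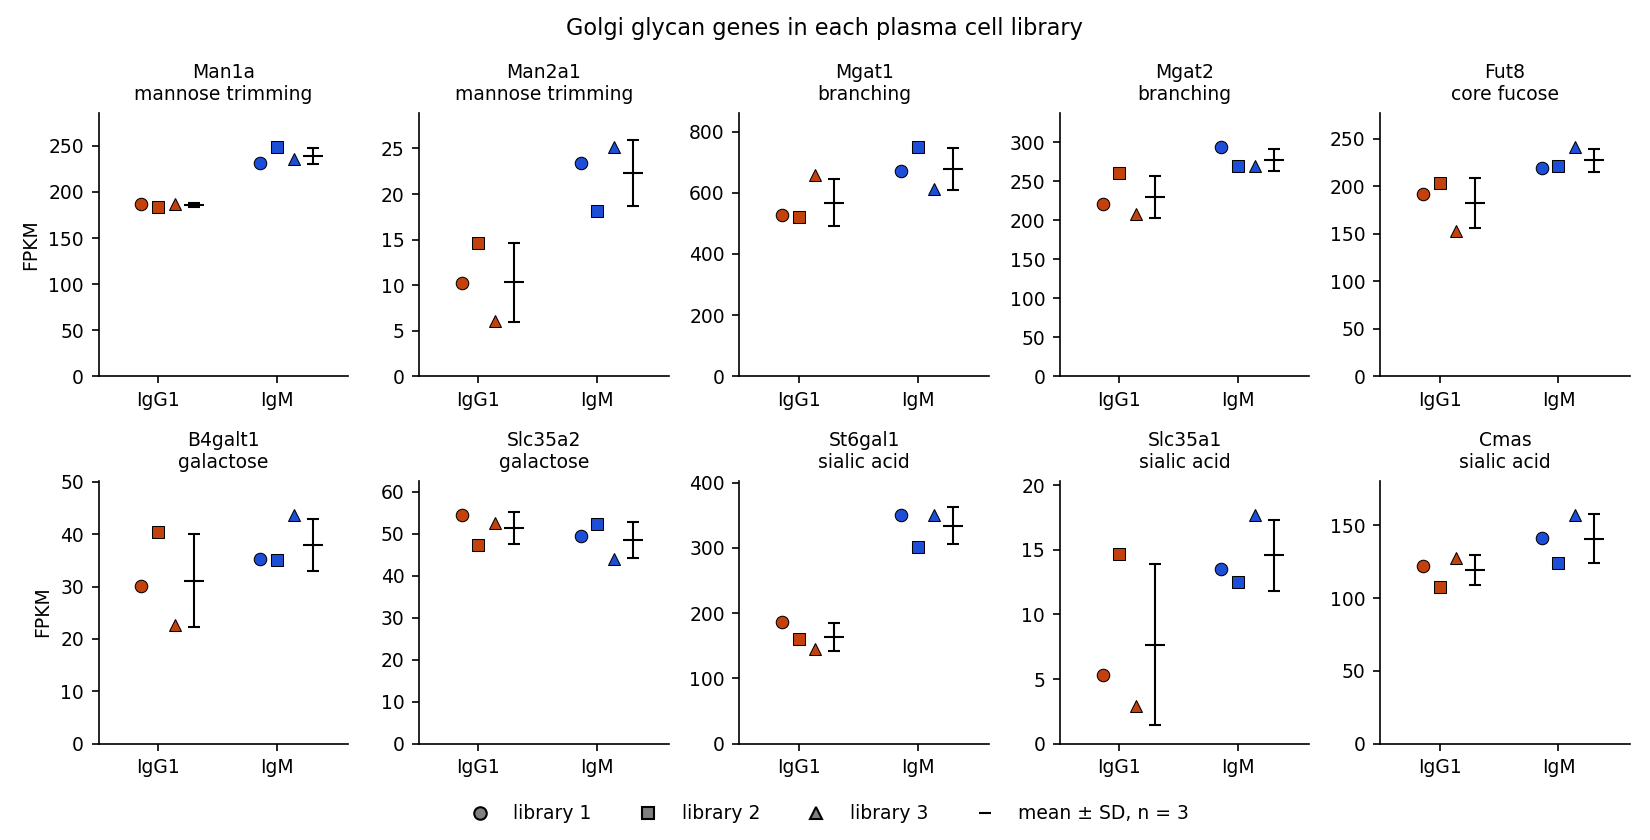
FPKM (vertical axis, from 0, a scale per gene) of each of the 10 genes in the 3 IgG1 libraries (orange, left) and the 3 IgM libraries (blue, right), with marker shape for the library number and the mean ± SD at the side. The IgG1 libraries lie between 144 and 186 for St6gal1, below all IgM libraries, while the ranges of Mgat1, B4galt1, Slc35a2, Slc35a1 and Cmas overlap.

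In order of level, Mgat1 was the most abundant of the set in all 6 libraries and St6gal1 changed place. St6gal1 ranked 5th of 10 in each IgG1 library and 2nd in each IgM library. In IgG1 cells the order by mean FPKM was Mgat1, Mgat2, Man1a, Fut8, St6gal1, Cmas, Slc35a2, B4galt1, Man2a1 and Slc35a1. The ranges of neighbours overlapped between Man1a and Fut8, between Fut8 and St6gal1, and between Man2a1 and Slc35a1. In IgM cells the order was Mgat1, St6gal1, Mgat2, Man1a, Fut8, Cmas, Slc35a2, B4galt1, Man2a1 and Slc35a1, with overlap between Man1a and Fut8. Mgat1 stood at the 96.5th to 98.0th percentile of tested genes, and Slc35a1, the lowest, at the 21.1st to 56.7th.

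The summed FPKM of the 10 genes was 1549 ± 14.5 in IgG1 and 2020 ± 19.0 in IgM libraries (SD, n = 3 each). St6gal1 made up 10.6 ± 1.45% of that sum in IgG1 and 16.5 ± 1.49% in IgM. Mgat1 made up 36.6 ± 4.77% in IgG1 and 33.6 ± 3.09% in IgM.

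Of the 10 log2 fold changes 9 were negative, and their median was -0.32, beside 53.7% negative and a median of -0.05 over all tested genes. In 5 genes every IgG1 library lay below every IgM library, which held for 13.5% of all tested genes. In 0 of the 10 did every IgG1 library lie above, which held for 13.7% of all. The genes with separate ranges were Man1a, Man2a1, Mgat2, Fut8 and St6gal1.

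Man1a encodes a Golgi mannosidase of the first trimming steps and lies on chromosome 10 from 53904785 to 54076609 in GRCm38. Its FPKM was 187, 184 and 187 in IgG1 libraries 1 to 3, against 232, 249 and 235 in IgM libraries 1 to 3. The 3 IgG1 values were nearly alike and below all IgM values, but the difference missed the threshold with limma (log2 fold change -0.36, SE 0.11, adjusted p = 0.0808).

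Man2a1 encodes the mannosidase that acts after MGAT1, and lies on chromosome 17 from 64600736 to 64755110. Its FPKM was 10.2, 14.7 and 6.00 in IgG1 libraries, against 23.5, 18.2 and 25.1 in IgM libraries. The groups did not overlap, and the log2 fold change was -1.11 (SE 0.33, limma adjusted p = 0.0693). Its median transcript length, 6991 nt, was the longest of the set. Expression leaned to shorter transcripts in IgG1 libraries, where the deviations from gene means had a Spearman rho with length of -0.24 to -0.15, and to longer ones in IgM libraries (0.15 to 0.30), a description over genes and not a test. With each library's trend on length and GC content removed, the log2 fold change of Man2a1 was -0.70 (SE 0.30, limma adjusted p = 0.257) and that of Man1a was -0.10 (SE 0.11, adjusted p = 0.70).

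Mgat1 opens the first branch and is required for hybrid and complex glycans. It lies on chromosome 11 from 49244191 to 49263030. Its FPKM was 526, 520 and 658 in IgG1 libraries, against 672, 749 and 614 in IgM libraries. IgG1 library 3 lay within the IgM range, and limma gave a log2 fold change of -0.26 (SE 0.12, adjusted p = 0.247).

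Mgat2, which opens the second branch, lies on chromosome 12 from 69184157 to 69186770. It was at 220, 261 and 208 FPKM in IgG1 libraries, against 294, 270 and 269 in IgM libraries. The groups were separate by a small gap (log2 fold change -0.28, SE 0.12, limma adjusted p = 0.212). An exon of the predicted gene Gm49383 overlaps it on the opposite strand, and strand use in counting is not stated, so its values are uncertain to that extent.

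Fut8, the fucosyltransferase of the glycan core, lies on chromosome 12 from 77238125 to 77476338. Its FPKM was 191, 203 and 152 in IgG1 libraries, against 219, 222 and 241 in IgM libraries. All IgG1 libraries were lower, by a log2 fold change of -0.33 (SE 0.13, limma adjusted p = 0.181). With the length and GC trend removed the value was -0.04 (SE 0.11, adjusted p = 0.888).

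B4galt1, the galactosyltransferase, lies on chromosome 4 from 40804602 to 40854005. It was at 30.1, 40.4 and 22.7 FPKM in IgG1 libraries, against 35.3, 35.0 and 43.7 in IgM libraries. IgG1 library 2 exceeded IgM libraries 1 and 2 (log2 fold change -0.31, SE 0.23, limma adjusted p = 0.482). Slc35a2, the UDP-galactose carrier on chromosome X from 7884028 to 7894492, was at 54.5, 47.2 and 52.5 FPKM in IgG1 libraries, against 49.5, 52.3 and 43.9 in IgM libraries. It was the 1 gene of the set with a positive log2 fold change (0.08, SE 0.17, limma adjusted p = 0.817), and its groups overlapped. Its sign turned to -0.15 when libraries were scaled to equal FPKM sums leaving out Jchain and to -0.11 once length and GC trends were removed.

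St6gal1, which encodes the α-2,6-sialyltransferase, lies on chromosome 16 from 23224740 to 23360350 and is annotated as protein-coding. Its FPKM was 186, 161 and 144 in IgG1 libraries 1 to 3, against 350, 301 and 351 in IgM libraries 1 to 3. The highest IgG1 library was well below the lowest IgM library. The means were 164 ± 20.9 in IgG1 and 334 ± 28.2 in IgM (SD, n = 3 each), and the log2 fold change was -1.03 (SE 0.13, limma adjusted p = 0.00389). The call held when any 1 library was left out, with adjusted p between 0.00523 and 0.0296. With the length and GC trends removed its value was -0.78 (SE 0.11, adjusted p = 0.00608). It missed the threshold without the intensity trend of limma's variance estimate (-1.03, adjusted p = 0.111) and without the filter on low genes (adjusted p = 0.0635). Over all 17 alternatives its adjusted p ranged from 9.61e-04 to 0.111.

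RefSeq gives St6gal1 3 transcription starts in GRCm38.p6, and GENCODE vM21 begins a transcript at each. The transcripts that begin there have 8, 8 and 7 exons, of which 6 are shared by all, so the FPKM of the gene does not say which start was used. The 250 bases before each start are shown because they are the candidate control regions of the gene that passed the test. All read on the plus strand, at chr16:23224490-23224739, chr16:23225771-23226020 and chr16:23290220-23290469, and capitals mark CCAAT or its reverse complement ATTGG.
St6gal1 start 1: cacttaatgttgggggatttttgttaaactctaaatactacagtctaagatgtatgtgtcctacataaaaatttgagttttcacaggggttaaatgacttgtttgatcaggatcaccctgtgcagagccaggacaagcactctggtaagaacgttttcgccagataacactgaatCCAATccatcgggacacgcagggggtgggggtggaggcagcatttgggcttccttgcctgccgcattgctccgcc
St6gal1 start 2: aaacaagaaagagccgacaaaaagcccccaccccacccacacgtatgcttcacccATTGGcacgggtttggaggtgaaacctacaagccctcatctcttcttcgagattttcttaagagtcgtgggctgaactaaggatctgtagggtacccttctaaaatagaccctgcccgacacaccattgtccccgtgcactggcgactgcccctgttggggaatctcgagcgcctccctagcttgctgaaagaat
St6gal1 start 3: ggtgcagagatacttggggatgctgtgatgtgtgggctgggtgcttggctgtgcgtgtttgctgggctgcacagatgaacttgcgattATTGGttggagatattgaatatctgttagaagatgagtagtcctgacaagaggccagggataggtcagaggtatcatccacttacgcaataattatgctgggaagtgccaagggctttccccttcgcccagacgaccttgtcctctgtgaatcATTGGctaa
The CCAAT box had 1, 1 and 2 matches in these windows, and 33.8% of 32851 windows of the same length before RefSeq starts held at least 1. Over both strands TATAAA had no match in the windows of St6gal1 (12.4% of all windows held it), nor had the octamer ATGCAAAT (1.6%) or the ETS-IRF composite element (2.3%). ACGTG, the core of sites bound by XBP1 among other factors, had 1 match, before start 2 (16.6% of all windows). The motifs were chosen after the sequences were seen, and none of the others contains CCAAT. Among the 17 windows of the 10 genes 6 held CCAAT, 1 ACGTG, 1 TATAAA (Slc35a1) and 1 ATGCAAAT (Slc35a2), and 0 held the ETS-IRF element. A match is a run of letters and was not tested for binding.

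Slc35a1, the CMP-sialic acid carrier on chromosome 4 from 34663257 to 34687438, was the least abundant gene by group mean. Its FPKM was 5.35, 14.7 and 2.91 in IgG1 libraries, against 13.6, 12.5 and 17.7 in IgM libraries. IgG1 library 2 lay within the IgM range and the other IgG1 libraries were lower, so that the log2 fold change of -1.08 carried an SE of 0.46 (limma adjusted p = 0.191). Without IgG1 library 2 it was -1.63 (adjusted p = 0.0506), and without IgG1 library 3 it was -0.63 (adjusted p = 0.403). Of the tested genes, 74, 243 and 288 were at 0 in IgG1 libraries 1 to 3, against 36, 27 and 60 in IgM libraries 1 to 3, and the part of that difference in the low genes was not tested. The lowest value of Slc35a1 corresponds to about 91.3 fragments, whose counting error alone is 10.5%, while the lowest value of St6gal1 corresponds to about 9290 fragments and 1.04%. These errors cover counting only and rest on the same estimate of depth.

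Cmas activates sialic acid to its CMP form and lies on chromosome 6 from 142756686 to 142775714. Its FPKM was 122, 108 and 128 in IgG1 libraries, against 141, 124 and 157 in IgM libraries. IgG1 library 3 lay above IgM library 2 (log2 fold change -0.24, SE 0.14, limma adjusted p = 0.359).

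**Figure D2:**
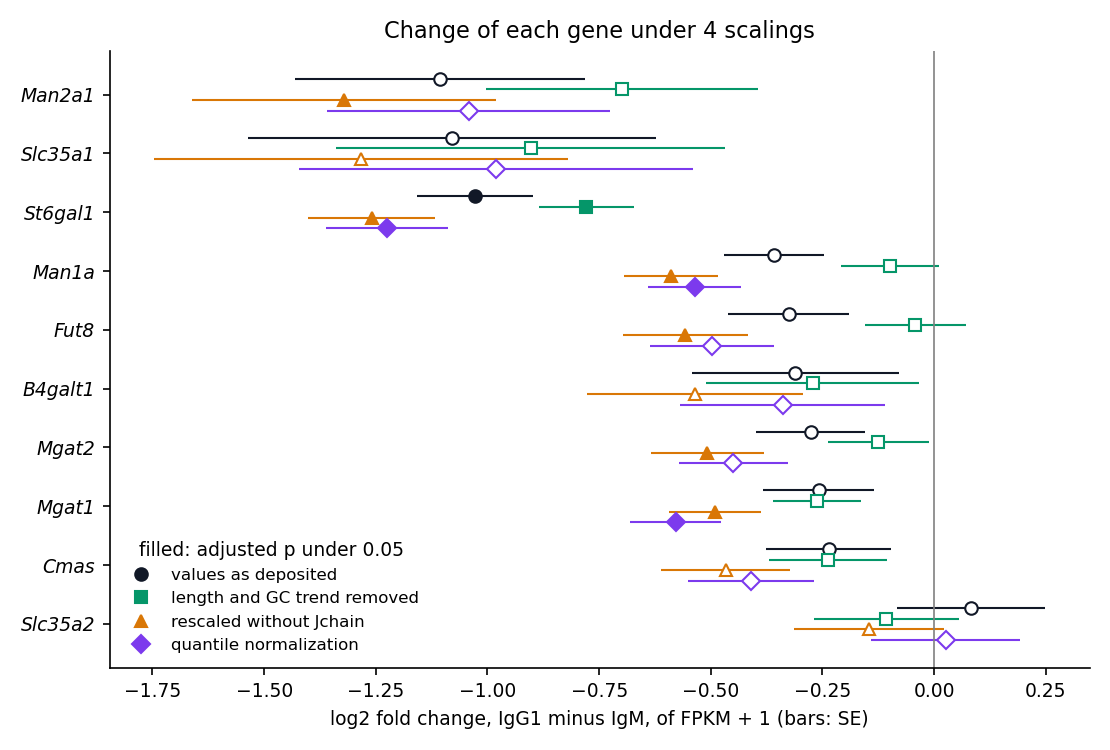
Log2 fold change of FPKM + 1, IgG1 minus IgM (horizontal axis), of the 10 genes (rows) with bars for the SE, as deposited and under 3 other treatments of the libraries. Filled symbols have limma adjusted p under 0.05, which St6gal1 reaches in all 4, Man1a and Mgat1 in 2, and Fut8, Mgat2 and Man2a1 in 1, after rescaling without Jchain.

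The count of calls in the set depended on the scaling between libraries. Scaling the libraries to equal FPKM sums, with Jchain left out, called 6 of the 10 lower with limma, namely St6gal1, Man1a, Man2a1, Mgat1, Mgat2 and Fut8, where 4.32% of all tested genes were called lower. It also moved the median of all tested genes from -0.05 to -0.25. Relative to that median of all genes, the median of the set was -0.27 as deposited, -0.29 after rescaling and -0.52 after quantile normalization. Quantile normalization called 3 lower, St6gal1, Man1a and Mgat1, where 2.2% of all tested genes were called lower. With the trends on length and GC content removed, 1 was called, St6gal1. St6gal1 was negative under all 17 alternatives.

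A ratio of St6gal1 to another gene of the same library does not depend on a factor that scales the whole library. St6gal1 to B4galt1, the enzyme that makes its acceptor, was 6.18, 3.98 and 6.36 in IgG1 libraries 1 to 3, against 9.91, 8.62 and 8.03 in IgM libraries 1 to 3. All IgG1 ratios were below all IgM ratios. The means were 5.50 ± 1.32 in IgG1 and 8.85 ± 0.964 in IgM (SD, n = 3 each), a difference of -0.72 on the log2 scale (two-sided exact permutation p = 0.1, the smallest that 3 against 3 allows, and 0.129 adjusted over the 9 ratios). With the length and GC trends removed the difference was -0.51 (exact permutation p = 0.2), and the groups were then no longer fully separate.

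The ratios of St6gal1 to Slc35a2, Cmas, Mgat1, Mgat2, Fut8 and Man1a were also lower in every IgG1 library than in any IgM library, making 7 of 9. All 9 ratios share St6gal1, which was itself lower in every IgG1 library, so the 7 are not separate results. In the values as deposited St6gal1 to Slc35a2 differed most, at 3.19 ± 0.380 in IgG1 and 6.94 ± 1.12 in IgM (-1.11 on the log2 scale, exact permutation p = 0.1). With the length and GC trends removed the log2 fold change was -0.11 for Slc35a2, -0.10 for Man1a and -0.04 for Fut8. The ratio to Slc35a2 then no longer differed most. St6gal1 to Cmas was 1.38 ± 0.218 in IgG1 and 2.38 ± 0.131 in IgM. St6gal1 was less abundant than Mgat2, Fut8 and Man1a in every IgG1 library and more abundant than each of them in every IgM library. The ratios to Slc35a1 and Man2a1 overlapped between the groups, with differences of 0.05 and 0.08 (exact permutation p = 1 and 0.8).

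**Figure D3:**
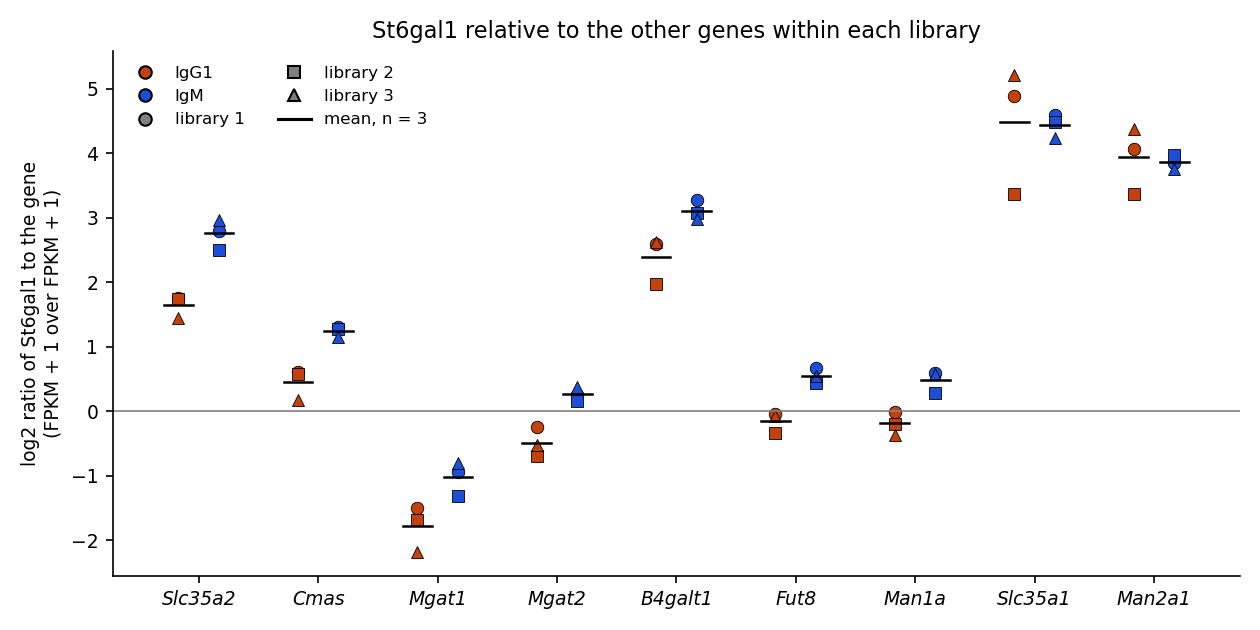
Log2 ratio of St6gal1 to each of the other genes within a library (vertical axis, FPKM + 1 over FPKM + 1), for IgG1 (orange, left of each pair) and IgM (blue, right) libraries, with bars at the mean of 3. For 7 genes all IgG1 points lie below all IgM points, and for Slc35a1 and Man2a1 the points overlap.

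Genes whose profile over the 6 libraries was nearest to that of St6gal1, by Euclidean distance of centred log2(FPKM + 1) values, were Sept11 (distance 0.21), Hspa13 (0.23), Kif5b (0.24), Pcmtd2 (0.24) and Nek7 (0.26). They encode a septin, an HSP70 family member, a kinesin heavy chain, a protein of the PCMT domain family and a kinase. Sept11 had an FPKM of 45.2, 38.8 and 35.7 in IgG1 libraries, against 74.0, 72.8 and 78.7 in IgM libraries. Since the genes were picked for this pattern, their levels are a description.

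Other genes of the same steps were read from the same fit. Of 48 that were found, 37 passed the filter on low values, and 2 of these were called higher in IgG1, 0 lower. Of all tested genes 4.26% were called higher and 1.76% lower, and 2 of 37 is near that background. Of the 37, 27 (73%) were negative and the median was -0.19, beside 53.7% and -0.05 over all tested genes. With the length and GC trends removed the median was -0.05, beside 0.02 for all genes. Galk1, the kinase that starts the use of free galactose, was at 146, 202 and 205 FPKM in IgG1 libraries, against 89.0, 118 and 90.7 in IgM libraries. All IgG1 libraries were higher (log2 fold change 0.88, SE 0.17, limma adjusted p = 0.0133). The call was lost in 4 of the 6 fits that left out 1 library, those without IgG1 library 2 or 3 or IgM library 1 or 3 (adjusted p 0.0522 to 0.0726), as well as with the length and GC trends removed (0.58, adjusted p = 0.0616). It was also lost without the intensity trend (adjusted p = 0.157) and without the filter (0.11). Galt, the next enzyme after the kinase, was at 16.4, 9.06 and 16.7 FPKM in IgG1 libraries, against 14.4, 13.3 and 9.02 in IgM libraries (log2 fold change 0.16, SE 0.32, limma adjusted p = 0.818).

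**Figure D4:**
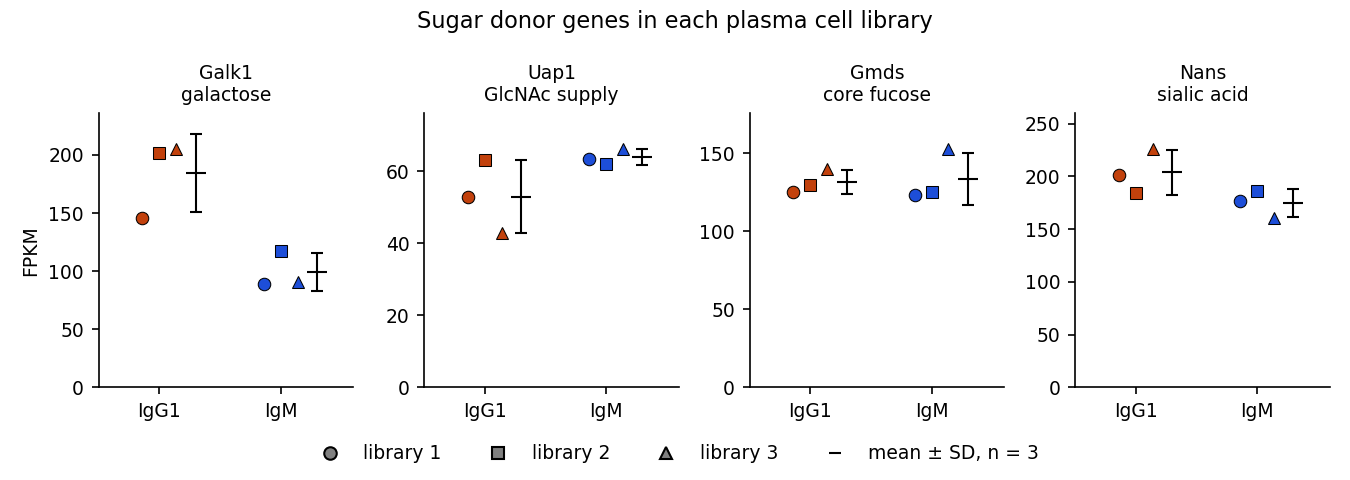
FPKM (vertical axis, from 0, a scale per gene) of Galk1, Uap1, Gmds and Nans, which supply sugar donors, in the 3 IgG1 libraries (orange, left) and the 3 IgM libraries (blue, right), with the mean ± SD at the side. Galk1 lies between 146 and 205 in IgG1, above all IgM libraries, while Uap1, Gmds and Nans overlap between the groups.

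In other steps the most abundant gene is given. For mannose trimming it was Man1b1, at 131 ± 28.3 FPKM in IgG1 and 137 ± 7.24 in IgM (SD, n = 3 each; limma adjusted p = 0.805). For branching it was the UDP-GlcNAc carrier Slc35a3, at 5.94, 5.77 and 9.49 in IgG1 libraries, against 9.59, 7.33 and 8.41 in IgM libraries (adjusted p = 0.728). Uap1, which makes UDP-GlcNAc, was at 52.9 ± 10.2 in IgG1 and 63.9 ± 2.17 in IgM (adjusted p = 0.383). Gmds, which starts the synthesis of GDP-fucose, was at 131 ± 7.53 in IgG1 and 134 ± 16.7 in IgM (adjusted p = 0.956). Nans, the sialic acid synthase, was at 204 ± 21.2 in IgG1 and 175 ± 13.0 in IgM (adjusted p = 0.348).

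**Figure D5:**
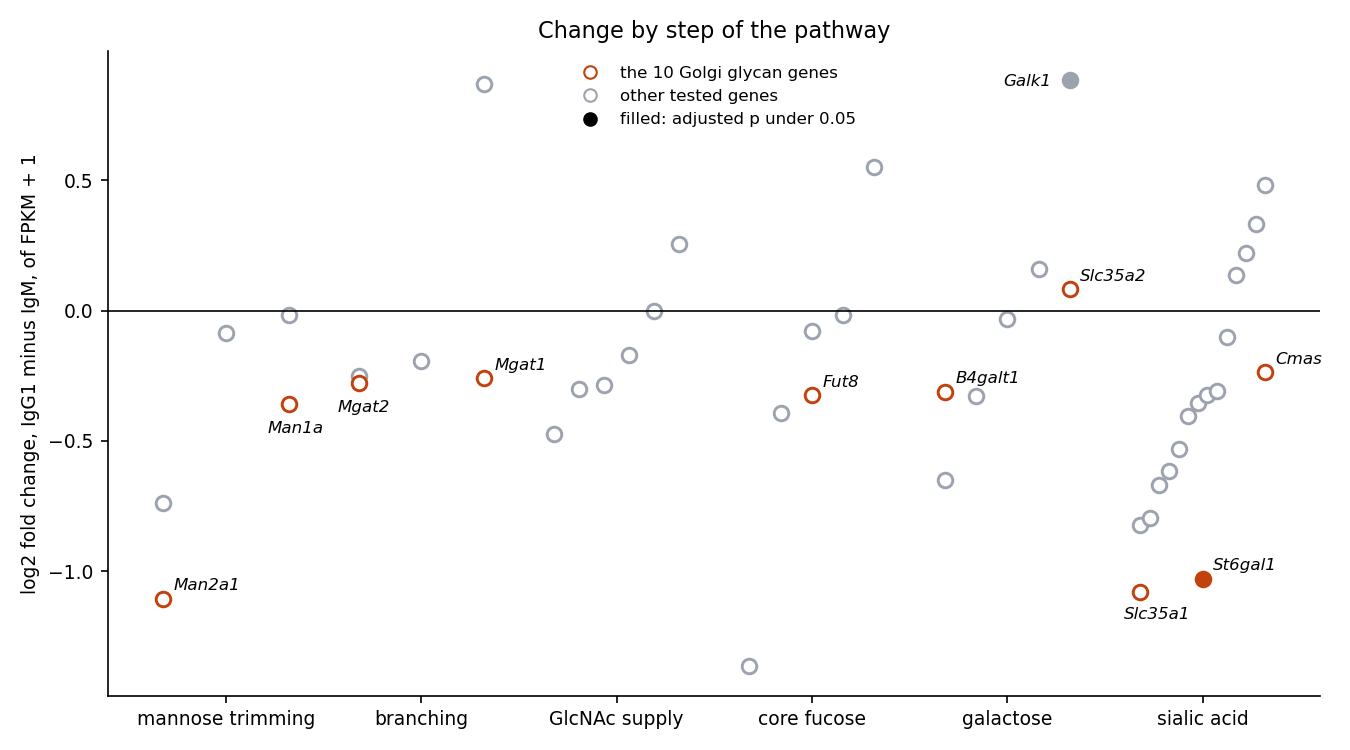
Log2 fold change of FPKM + 1, IgG1 minus IgM (vertical axis), by step of the pathway, for the 10 Golgi glycan genes (orange) and other tested genes (grey). Filled points have limma adjusted p under 0.05: St6gal1 at -1.03 and Galk1 at 0.88. The grey points leave out another called gene of these steps, which is not reported here by name.

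Some genes for further branches or for the same linkages were at or near 0 and others were low. Mgat4a and Mgat4b, which start further branches, averaged 4.23 ± 2.23 and 3.12 ± 2.31 FPKM in IgG1 and 4.70 ± 1.44 and 1.10 ± 0.589 in IgM (SD, n = 3 each; limma adjusted p = 0.842 and 0.345). Mgat3, which adds the bisecting GlcNAc, was at 0 in 4 libraries and at most at 0.0137 FPKM. Mgat5, a further branching enzyme, was at 0 in all IgG1 libraries and at most at 0.878 in IgM. St6gal2, the other α-2,6-sialyltransferase, was at 0 in 5 libraries and at 0.734 in IgG1 library 3. Of the galactosyltransferase genes beside B4galt1, B4galt3 averaged 8.54 ± 4.25 FPKM in IgG1 and 10.1 ± 2.05 in IgM (limma adjusted p = 0.704), and B4galt2, B4galt4, B4galt5 and B4galt6 did not pass the filter. Among the α-2,3-sialyltransferase genes St3gal1, which acts mainly on O-glycans, was highest, at 19.7 ± 3.50 in IgG1 and 15.4 ± 1.42 in IgM (adjusted p = 0.488).

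Golgi genes that do not act on glycans directly, the COG complex and the golgins with their stacking partners, were also read. Of 24, all of which passed the filter, 0 were called in either direction with limma at the adjusted threshold. Of these, 23 were negative and the median was -0.51. In 11 of the 24 every IgG1 library lay below every IgM library, and in 0 above. Of all tested genes 13.5% lay below and 13.7% above in this way. At an unadjusted limma p under 0.05, 7 of the 24 would pass, 7 of them lower in IgG1. Counted in either direction, 22.2% of all tested genes would pass. Of all tested genes 53.7% were negative. Their median transcript length was 3735 nt, and with the length and GC trends removed their median was -0.30, beside 0.02 for all genes. Gorasp2, a stacking protein, was at 333, 287 and 344 FPKM in IgG1 libraries, against 390, 430 and 413 in IgM libraries, with no overlap (log2 fold change -0.36, SE 0.11, limma adjusted p = 0.0851). Cog8, the most abundant COG gene, was the 1 gene with a positive log2 fold change, which turned to -0.05 after rescaling without Jchain, at 92.1 ± 9.09 in IgG1 and 82.1 ± 18.3 in IgM (adjusted p = 0.608).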

How the data were processed

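RNA was measured by sequencing in 3 IgG1 and 3 IgM plasma cell libraries, made per the labels' protocols from total RNA with the SMART-Seq HT kit and Nextera XT. The deposited values are FPKM, per the file headers, 1 per gene symbol and library. Per the submitters' processing notes the authors worked in build mm10 with Cuffdiff, Cufflinks 2.2.1, TopHat2 2.1.1 and Bowtie2 2.3.5.1. Their annotation and scaling are not given in the sources consulted. FPKM moves with library composition and with coverage along long transcripts, and depth is known only roughly, from the steps of low values.

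Genes with FPKM of at least 1 in at least 3 libraries (9087) were tested on log2(FPKM + 1) with limma 3.58.1 in R 4.3.3, with an intensity trend, on all 6 libraries, with Benjamini-Hochberg adjustment over all of them. This scale understates the change of low genes. Ratios were tested by two-sided exact permutation. Transcript length and GC content came from GENCODE vM21 (GRCm38, the assembly that mm10 names) for 96.5% of tested genes, and the correction removed from each library a spline of the deviations from gene means on both (4 degrees of freedom each). The fit was tested on simulated data. Coordinates are from GENCODE vM21 and promoter sequences from RefSeq (GRCm38.p6), which had a window for 10 of the 10 genes. Figures used matplotlib 3.10.9 in Python 3.11.15.

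The genes and lists were chosen with earlier results of these data known. Besides the 10 genes, the rule for naming took list genes past the threshold, the most abundant of each step with none, and the 5 nearest profiles. Marker genes are given as levels only. Some list and marker genes are counted but not reported here by name. Galt, Mgat3, Mgat4a, Mgat4b, Mgat5, St6gal2, B4galt2 to B4galt6 and St3gal1 fall outside that rule. They were picked with their values known. The alternatives were pseudocounts, filters, scalings, no intensity trend, the length and GC correction, a block on replicate number and fits that omit 1 library.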

Additional observations from a re-analysis of the deposited data

How the results depend on the processing

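Direction was the same in all 17 alternatives for each of the 10 genes but Slc35a2, which was -0.15 after rescaling without Jchain and -0.11 after the length and GC correction with or without the replicate block. St6gal1 kept its call in 15 of 17. The count of members called was 0 without the filter or the intensity trend, 3 after quantile normalization, 6 after rescaling without Jchain, and 1 in every fit without 1 library. Among all genes 547 were called, against 6 without the filter, 8 without the intensity trend, 260 after the length and GC correction and 108 to 645 without 1 library (174 and 200 without IgG1 library 2 or 3, 108 and 230 without IgM library 1 or 3). Higher calls made up 70.7% as deposited, 80.6% after median centring, 48.5% after quantile normalization, 31.1% after rescaling without Jchain and 33.3% and 37.5% without the filter and the trend. Of the other pathway genes 2 were called, against 0 without the filter or the trend, 1 after the correction and 1 to 3 without 1 library. Of the Golgi structure genes 0 were called, against 1 after quantile normalization, 3 after rescaling without Jchain and 1 with the replicate block and the correction. The sign turned in Man1b1 (0.0527) and Slc35a3 (0.0924) after the correction, with or without the block, in Gmds with median centring (0.0584), and in Nans (-0.0116) and Cog8 (-0.0457) after rescaling without Jchain. Without 1 library Man1b1 ranged from -0.25 to 0.0432 and Gmds from -0.0724 to 0.0831. The ratio of St6gal1 to B4galt1 was -0.89 to -0.51 over its alternatives, with exact permutation p = 0.2 after the correction, and sign-flip p = 0.25 with the block (the smallest 3 pairs allow) and 0.5 with both. The cause of these changes was not tested.

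Replicate numbers were shared by the groups, but the labels state no pairing and the main fit took none. The deviations of same-numbered libraries from their group means correlated with r of 0.101, -0.0315 and -6e-04. Differently numbered libraries gave r of -0.0982 to 0.0958. These correlations cannot show whether libraries of the same number shared an animal. With the replicate block 586 genes and 1 of the 10 were called, St6gal1 with limma adjusted p = 0.00201. Depth limits the low genes most, Slc35a1 above all.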
